A study of Mus musculus with 6 samples.

Results

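The enzymes that write, maintain and remove DNA methylation were followed in pro-B cells, precursors of B cells that are found in bone marrow. The set was fixed by name and holds 7 genes: Tet1, Tet2, Tet3, Dnmt1, Dnmt3a, Dnmt3b and Uhrf1. Of these, 6 had at least 1 probe set annotated with a single gene symbol, 13 probe sets in all, among 17097 genes and 45037 probe sets measured. Tet1 had no probe set under its own name in the annotation used here, so no value is given for it. For each gene the main value is that of the probe set brightest on average over the 6 arrays, and its other probe sets are given beside it.

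The samples were 3 arrays of pro-B cells from mice labelled HDAC7 deficient and 3 arrays of pro-B cells from mice labelled wild type, described as biological triplicates. All were sorted as B220+CD43+IgM- cells, and the mice carried a conditional allele of HDAC7, a class IIa histone deacetylase. The sources used here do not give the Cre line, the strain, the age of the mice or whether animals were pooled. Because nothing says how the triplicates were drawn, p-values measure the spread between these arrays. The question of the study was whether B cell precursors need HDAC7 to hold lineage-foreign genes off.

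DNA methylation is the addition of a methyl group to cytosine, mostly where a cytosine is followed by a guanine (a CpG). Dnmt3a and Dnmt3b place new methyl groups. Dnmt1 copies them to the daughter strand after replication, guided by Uhrf1, which binds DNA methylated on 1 strand. The TET dioxygenases oxidise methylcytosine to hydroxymethylcytosine and further forms, which are then diluted by replication or cut out by base excision repair. In B cell development Tet2 and Tet3 are known for opening enhancers of the immunoglobulin light chain locus and of B lineage factors.

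The promoters of Tet2, Dnmt1 and Uhrf1 are shown because these are the genes on which the results below turn. RefSeq-derived windows (GRCm38.p6) run from 250 bases before to 50 bases after an annotated gene start and are printed along the strand of the gene. All 7 genes had at least 1 window, 12 in all. In the Tet2 window (chr3:133544341-133544640, minus strand) capitals mark a run of 14 bases that a search for repeats found in 5 copies, each 42 bases after the previous one. In the windows of Dnmt1 (chr9:20952574-20952873, minus strand) and Uhrf1 (chr17:56304063-56304362, plus strand), capitals mark matches to E2F sites, the elements through which E2F factors drive genes of DNA replication.
Tet2: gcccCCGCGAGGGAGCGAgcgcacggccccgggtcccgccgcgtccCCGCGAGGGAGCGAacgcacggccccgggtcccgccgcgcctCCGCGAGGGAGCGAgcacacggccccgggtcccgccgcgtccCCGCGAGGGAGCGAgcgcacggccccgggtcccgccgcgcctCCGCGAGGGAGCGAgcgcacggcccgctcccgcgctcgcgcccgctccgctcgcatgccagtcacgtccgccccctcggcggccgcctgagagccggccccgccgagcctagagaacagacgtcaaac
Dnmt1: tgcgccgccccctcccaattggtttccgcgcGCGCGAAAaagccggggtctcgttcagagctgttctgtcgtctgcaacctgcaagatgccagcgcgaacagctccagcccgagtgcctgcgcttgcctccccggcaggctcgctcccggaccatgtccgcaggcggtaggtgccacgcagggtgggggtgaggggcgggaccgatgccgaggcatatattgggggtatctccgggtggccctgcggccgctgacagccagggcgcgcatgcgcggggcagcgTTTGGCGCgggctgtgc
Uhrf1: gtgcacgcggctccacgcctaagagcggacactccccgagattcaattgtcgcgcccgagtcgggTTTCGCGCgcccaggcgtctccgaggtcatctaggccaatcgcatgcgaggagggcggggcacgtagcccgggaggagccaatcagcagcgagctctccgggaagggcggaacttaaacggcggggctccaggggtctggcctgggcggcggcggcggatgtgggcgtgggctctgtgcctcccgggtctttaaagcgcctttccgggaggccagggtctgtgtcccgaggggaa

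The Tet2 window held 57 CpGs, a number reached by 0.152% of the 32851 windows of the table, whose median was 7. The Dnmt1 and Uhrf1 windows shown held 33 CpGs each. The E2F search used the 4 sequences TTTGGCGC, TTTCGCGC, TTTCCCGC and TTTGCCGC on both strands. It found matches in 2 of the 12 windows, those of Dnmt1 and Uhrf1 printed here, against 2.26% of all windows. Each of the 4 sequences holds a CG, and that share was not matched for the number of CpGs in a window. The Dnmt1 window had 2 matches, with their first bases at -219 and 34 counted from the start, and the Uhrf1 window had 1, at -185. The MEF2 motif, bound by the factors that recruit class IIa deacetylases, was in none of the 12 windows and in 3.19% of all windows. Dnmt1 has 3 annotated starts in the table and Uhrf1 has 2, and which of them pro-B cells use was not measured.

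Wild-type replicate 3 stood apart, which touches every value below. Its correlations with the other arrays across probe sets were 0.70 to 0.82, against at least 0.94 among the other 5, and its interquartile range was 1.72 against 2.27 to 2.93. Among the 4274 genes of the brightest 25%, this array was the lowest of the 6 for 85.0% and lay a median of -1.36 from the mean of the other wild-type arrays. On this array the 3′ probes of the actin control read 1.69 above its middle probes, against 0.16 to 0.26 elsewhere. The arrays were also divided across genotypes. Xist was high on HDAC7-deficient replicates 2 and 3 (11.40 and 11.27). It was low on HDAC7-deficient replicate 1 (4.87) and wild-type replicates 1 and 2 (5.38 and 5.17). Wild-type replicate 3 lay between them at 8.51 and was placed with the high arrays, being above the midpoint of the range. Hybridisation spike-ins followed the same division, with means of 9.99 to 10.78 and 8.64 to 9.17. Each of the 6 measured enzymes is therefore also given without wild-type replicate 3 and within the division.

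On the arrays labelled HDAC7 deficient, Hdac7 mRNA was no lower than in wild type. It was 9.59 ± 0.34 there and 8.62 ± 1.15 in wild type (SD, n = 3 each, deposited log2 values), which is a change of 0.97 ± 0.59 (limma adjusted p = 0.399). Without wild-type replicate 3 the change was 0.31. The position of these probes relative to the deleted part is unknown here, and Hdac7 is therefore no check of the labels. Directions below refer to arrays as labelled. The 11 pro-B markers measured, among them the B lineage factors Pax5 and Ebf1, averaged 9.36 to 10.15 on the HDAC7-deficient arrays and 8.52 to 9.91 on the wild-type arrays, with a median change of 0.23, or -0.21 without wild-type replicate 3.

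Tet2 was higher on the arrays labelled HDAC7 deficient, and no enzyme of the set passed the test over all genes with the arrays weighted equally. Its values were 8.73, 9.32 and 8.93 in HDAC7-deficient replicates 1, 2 and 3, against 7.81, 8.11 and 8.60 in wild-type replicates 1, 2 and 3. The groups did not overlap, with a gap of 0.13 between the lowest HDAC7-deficient and the highest wild-type array. Tet2 averaged 8.99 ± 0.30 in HDAC7-deficient cells and 8.18 ± 0.40 in wild-type cells (SD, n = 3 each), a change of 0.82 ± 0.34 on the log2 scale (SE), or 1.76-fold, with a 95% interval of 0.01 to 1.63. The limma unadjusted p was 0.0474 and the adjusted p 0.377. An exact two-sided permutation test over the arrays gave 0.1, the smallest value that 3 arrays against 3 allow.

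Tet2 differed from most bright genes in how wild-type replicate 3 read it. That array gave the highest wild-type value for Tet2, 0.64 above the mean of the other wild-type arrays, whereas it gave the lowest of the 6 values for the other 5 measured members. Among the genes of the brightest 25%, to which Tet2 belongs, 8.73% had this array above both other wild-type arrays, against 51.5% of all genes. Left out, the change of Tet2 was 1.03 ± 0.24, or 2.05-fold, with a 95% interval of 0.48 to 1.58 and a limma adjusted p of 0.196. Within the division the differences were 0.77 on the Xist-low arrays (1 HDAC7-deficient, 2 wild-type) and 0.52 on the Xist-high arrays (2 HDAC7-deficient, 1 wild-type).

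Normalization moved the Tet2 result. Quantile normalization of the deposited values forces all 6 arrays, the narrower wild-type replicate 3 among them, to a common distribution. After it Tet2 read 8.42, 9.06 and 8.79 in HDAC7-deficient replicates 1, 2 and 3, against 7.98, 7.95 and 9.54 in wild-type replicates 1, 2 and 3. Wild-type replicate 3 was then the highest of the 6, the groups overlapped and the change was 0.27. Quantile normalization of the 5 arrays without it gave 0.85.

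The second Tet2 probe set (1455300_PM_at) differed in the same direction and by less. It read 6.73, 6.45 and 6.29 in HDAC7-deficient cells against 5.96, 6.11 and 6.52 in wild-type cells. Wild-type replicate 3 lay between the HDAC7-deficient arrays, so the groups overlapped, and the change was 0.30 (limma adjusted p = 0.473, over all probe sets). Without that array all HDAC7-deficient arrays were higher, by 0.46 on average, with an adjusted p of 0.368. The mean over both probe sets gave a change of 0.56, with an adjusted p of 0.343.

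Tet3, the other TET enzyme measured, gave 7.54, 8.20 and 7.75 in HDAC7-deficient replicates 1, 2 and 3, against 7.18, 7.60 and 6.46 in wild-type replicates 1, 2 and 3. The groups overlapped by 0.06, since HDAC7-deficient replicate 1 lay just under wild-type replicate 2. The change was 0.75 ± 0.37, with a 95% interval of -0.13 to 1.63 and a limma adjusted p of 0.378. Without wild-type replicate 3 it was 0.44 ± 0.27, with an interval of -0.19 to 1.07. Within the division the difference was 0.15 on the Xist-low arrays and 1.52 on the Xist-high arrays, where wild-type replicate 3 is the sole wild-type array.

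**Figure D1:**
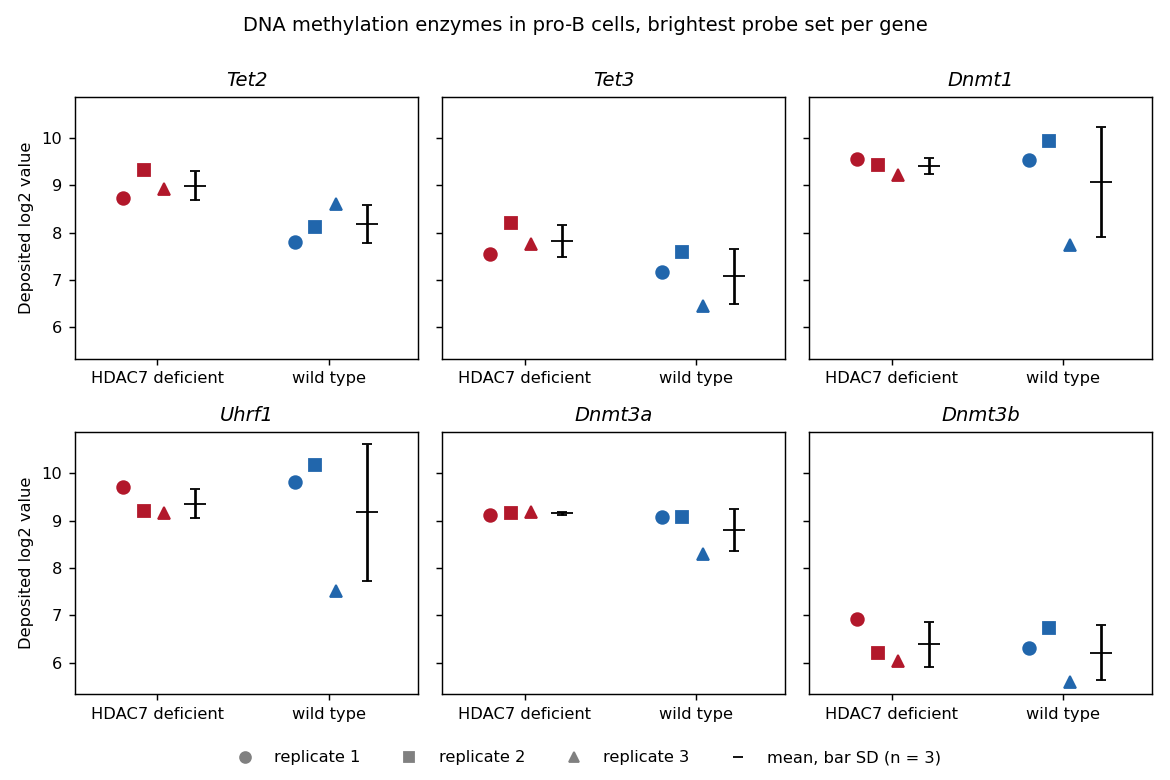
Deposited log2 values (vertical axis) of the 6 measured genes by group (horizontal axis), each point 1 array with its replicate number as the symbol, with the group mean and SD (n = 3) in black. Wild-type replicate 3 is the highest wild-type array for Tet2 and the lowest of all arrays for the other 5 genes. Levels of different genes come from different probes and are not comparable.

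The maintenance pair, Dnmt1 and Uhrf1, had directions that rested on wild-type replicate 3. Dnmt1 read 9.55, 9.44 and 9.23 in HDAC7-deficient replicates 1, 2 and 3, against 9.52, 9.92 and 7.74 in wild-type replicates 1, 2 and 3. The HDAC7-deficient arrays lay close together, and the wild-type arrays enclosed them. The change was 0.34 ± 0.58 with all arrays (limma adjusted p = 0.690), and -0.32 ± 0.18 without wild-type replicate 3 (95% interval -0.74 to 0.10, adjusted p = 0.454). HDAC7-deficient replicate 1 still lay above wild-type replicate 1 by 0.03 in that comparison, so the groups overlapped.

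Uhrf1 read 9.71, 9.21 and 9.16 in HDAC7-deficient replicates 1, 2 and 3, against 9.82, 10.18 and 7.52 in wild-type replicates 1, 2 and 3. All HDAC7-deficient arrays lay below wild-type replicates 1 and 2 and above wild-type replicate 3. The change was 0.18 ± 0.70 with all arrays, with a limma adjusted p of 0.863. Without wild-type replicate 3 it was -0.64 ± 0.21, or 0.64 of the wild-type level, with a 95% interval of -1.13 to -0.16. The groups then did not overlap, with a gap of 0.11, and the unadjusted limma p of 0.0155 became 0.279 after adjustment over all genes.

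The other Uhrf1 probe set (1415810_PM_at) read 9.36, 8.48 and 8.46 in HDAC7-deficient cells against 8.97, 9.29 and 8.32 in wild-type cells. Its HDAC7-deficient replicate 1 was the highest of the 6 arrays, so the groups overlapped with and without wild-type replicate 3. Its changes were -0.09 and -0.36, and the limma adjusted p without that array was 0.591. Within the division, Uhrf1 differed by -0.30 on the Xist-low arrays and 1.66 on the Xist-high arrays, and Dnmt1 by -0.17 and 1.59.

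Genes of S phase and proliferation, expressed in dividing cells, varied over the arrays with the pair in their mean level, though not each of them did. Of 15 measured, 11 were higher with all arrays (median 0.32), and 13 were lower without wild-type replicate 3 (median -0.25). In limma none passed the adjusted threshold in either fit, and 0 and 3 (all 3 lower) had an unadjusted p under 0.05, the 3 against 14.0% of all genes in that fit. Their mean level was 9.47, 9.14 and 9.09 in HDAC7-deficient replicates 1, 2 and 3, against 9.31, 9.67 and 7.83 in wild-type replicates 1, 2 and 3, the same order of arrays as for Dnmt1. Cdc6 and Cdt1, which load the replicative helicase, had changes of 0.65 and 0.45 with all arrays, and -0.04 and 0.00 without wild-type replicate 3. Mcm5, a subunit of that helicase, had changes of 0.59 and -0.41. Mcm2, Mcm3, Mcm4, Mcm6 and Mcm7 had changes of 0.15 to 0.85, and -0.43 to -0.14 without wild-type replicate 3. The transcription factor gene E2f1 was lower on every HDAC7-deficient array, with means of 7.91 ± 0.096 against 8.26 ± 0.12 in wild type (SD, n = 3 each). Its changes were -0.35 and -0.40 (limma adjusted p = 0.438 and 0.411). The groups were separate for 2 of the 15 genes, E2f1 among them, both lower, against 26.3% of all genes separate in either direction. For these 2 genes wild-type replicate 3 lay above every HDAC7-deficient array, unlike for Dnmt1 and Uhrf1. The part of the share of dividing cells in the values of Dnmt1 and Uhrf1 was not tested. In bulk samples fewer cells of a type and less RNA per cell cannot be told apart.

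Among the enzymes that place new methyl groups, Dnmt3a had 5 probe sets. Its main probe set (1423064_PM_at) read 9.12, 9.15 and 9.19 in HDAC7-deficient replicates 1, 2 and 3, against 9.07, 9.07 and 8.30 in wild-type replicates 1, 2 and 3. The groups did not overlap, but the gap was 0.05. The change was 0.34 ± 0.33 (limma adjusted p = 0.508), and 0.08 ± 0.16 without wild-type replicate 3, with a 95% interval of -0.29 to 0.45. Within that interval neither direction can be told at this probe set.

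The Dnmt3a probe sets differed mostly in how low wild-type replicate 3 read. At 1423066_PM_at that array read 6.23, against 9.13 and 9.30 in the other wild-type arrays and 9.23, 9.39 and 9.45 in HDAC7-deficient cells, and the change was 1.14, or 0.14 without it. Changes at 1423065_PM_at were 0.70 and 0.13, and at 1423063_PM_at 0.66 and 0.28. Probe set 1423063_PM_at, with 8.32, 8.10 and 8.15 in HDAC7-deficient cells against 7.77, 8.05 and 6.76 in wild-type cells, did not overlap between groups either. The dim probe set 1460324_PM_at had changes of -0.10 and -0.15, with overlapping groups. Within the division, Dnmt3a differed by 0.05 on the Xist-low arrays and 0.87 on the Xist-high arrays.

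Dnmt3b was dim at both of its probe sets. The main one (1449052_PM_a_at) read 6.93, 6.20 and 6.03 in HDAC7-deficient replicates 1, 2 and 3, against 6.31, 6.74 and 5.60 in wild-type replicates 1, 2 and 3. The groups overlapped, with a change of 0.17 ± 0.37 (limma adjusted p = 0.757), or -0.14 without wild-type replicate 3 and -0.10 without HDAC7-deficient replicate 1. The other (1418351_PM_a_at) had changes of 0.08 and -0.03 with all arrays and without wild-type replicate 3. Within the division, Dnmt3b differed by 0.41 and 0.52 on the Xist-low and the Xist-high arrays. In HDAC7-deficient replicate 1, Dnmt3b lay 0.74 above replicate 2, more than the difference between the group means.

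**Figure D2:**
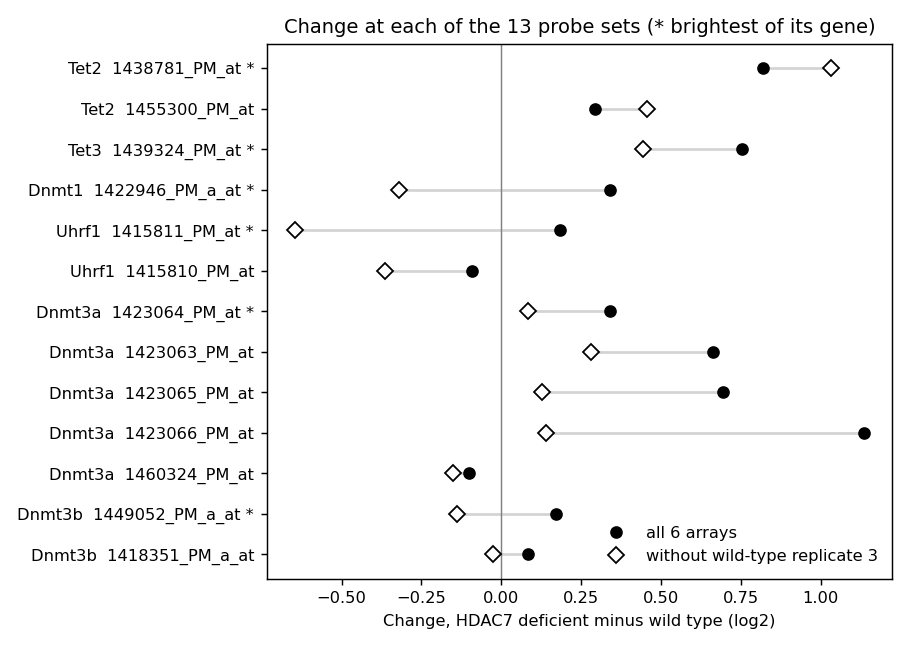
Change of each of the 13 probe sets, HDAC7 deficient minus wild type on the log2 scale, with all 6 arrays (filled) and without wild-type replicate 3 (open), a line joining both. With all arrays 11 of 13 lie above 0, and 7 do without that array. Both Tet2 probe sets lie further right without it, while Dnmt1 and both Uhrf1 probe sets lie left of 0.

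Set against all genes, the members stood as follows. With all arrays all 6 measured members had a positive change, with a median of 0.34, against a median of -0.03 and 48.0% positive over all 17097 genes. The genes of the brightest 25%, which include Tet2, Dnmt1, Dnmt3a and Uhrf1, had a median of 0.56. Without wild-type replicate 3 there were 3 members higher and 3 lower, with a median of -0.03. The median was then -0.05 over all genes and 0.06 over the brightest 25%.

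No member passed an adjusted p of 0.05 with all arrays weighted equally, and 0.00% of genes did in limma, where 2165 of 17097 had an unadjusted p under 0.05. Tet2 was the 1 member with an unadjusted p under 0.05, in the higher direction, where 3.52% of genes stood. The groups did not overlap for 2 of the 6 members, Tet2 and Dnmt3a, both higher, against 9.45% of genes that were separate and higher and 26.3% separate in either direction. Among probe sets 3 of 13 were separate and higher, 1 of Tet2 and 2 of Dnmt3a that share a gene, against 11.5% of all probe sets. With limma's array weights, which gave 8452 of the 17097 genes an adjusted p under 0.05, Tet2, Tet3 and Uhrf1 passed too, with changes of 1.34, 0.84 and -0.55. Without wild-type replicate 3, 2 members (Tet2 and Uhrf1) had an unadjusted p under 0.05, against 14.0% of genes. In that comparison 3 members were separate, Tet2 and Dnmt3a higher and Uhrf1 lower, against 30.7% of genes.

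**Figure D3:**
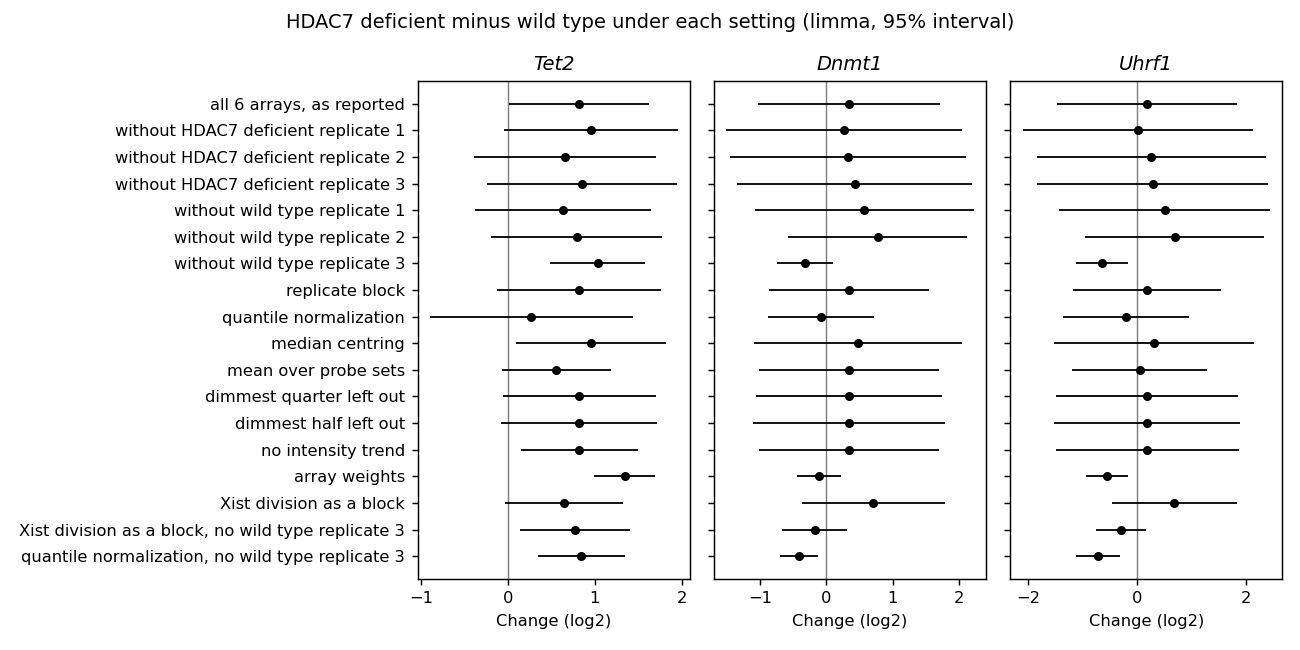
Change of Tet2, Dnmt1 and Uhrf1 (horizontal axes, log2, HDAC7 deficient minus wild type) with limma's 95% interval under each of the settings on the vertical axis. The change of Tet2 lies above 0 in all of them, from 0.27 with quantile normalization to 1.34 with array weights. Its interval includes 0 in most of them, such as -0.90 to 1.44 with quantile normalization. The replicate block, the filters of dim genes and the fit without an intensity trend can move only the intervals. Dnmt1 and Uhrf1 change sign between settings.

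The proteins that work with these enzymes gave no call in limma either, with all arrays or without wild-type replicate 3. At an unadjusted p under 0.05 stood 1 methyl-CpG reader and 3 of the TET partner and base excision repair list with all arrays, all higher. None of the maintenance, de novo or cofactor lists did. Over all genes 3.52% were higher at that threshold. Among the partners of maintenance methylation, 8 of 9 measured were higher with all arrays (median 0.50), and 4 of 9 without wild-type replicate 3 (median -0.05). Uhrf2, the paralog of Uhrf1, read 7.81, 7.57 and 7.22 in HDAC7-deficient cells against 6.92, 7.22 and 6.72 in wild-type cells, a change of 0.58 ± 0.28 (limma adjusted p = 0.377), or 0.46 without wild-type replicate 3. All its HDAC7-deficient values were higher, though the nearest pair, 7.22 in each group, differed only in the third decimal. No other of the 9 partners was separate, where 9.45% of all genes were separate and higher. The helicase gene Hells, a chromatin remodeller needed for normal DNA methylation, differed by -0.44, or -0.31 without wild-type replicate 3, and the histone methyltransferase gene Ehmt2 by 1.30, or 0.13.

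Regulators of new methylation were higher in 7 of 10 with all arrays and in 5 of 10 without wild-type replicate 3, with medians of 0.36 and 0.07. Nsd1, which makes the histone H3 lysine mark that Dnmt3a reads, was separate between groups, with a change of 0.83 ± 0.39, or 0.45 without that array. Dnmt3l, the partner of Dnmt3a in germ cells, was separate and lower, with a change of -0.39 ± 0.19, or -0.33 without that array, at a dim level of 5.50 to 5.76 in HDAC7-deficient cells and 5.79 to 6.12 in wild-type cells. Mphosph8, a reader of repressive histone methylation, differed by 0.61, or 0.41 without that array. The limma adjusted p-values of these 3 genes were 0.377 to 0.386. Of the 10 regulators 3 were separate and higher and 1 was separate and lower. Over all genes 9.45% were separate and higher, and 26.3% were separate in either direction.

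Methyl-CpG readers were mixed, with 5 of 8 higher and a median of 0.06, or 6 of 8 and 0.17 without wild-type replicate 3. Mbd6 was the exception in size. Mbd6 read 7.87, 8.65 and 8.57 in HDAC7-deficient cells against 7.51, 7.56 and 6.97 in wild-type cells, with no overlap. The groups overlapped for the rest of the 8 readers, where 9.45% of all genes were separate and higher. The change of Mbd6 was 1.02 ± 0.34, or 0.83 without wild-type replicate 3, with limma adjusted p-values of 0.377 and 0.288. Mbd2 and Zbtb4 differed by 0.40 and -0.38 with all arrays, and by 0.02 and -0.15 without that array.

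Of 16 genes measured in the list of TET partners and base excision repair, 13 were higher (median 0.52), and 10 were higher without wild-type replicate 3 (median 0.07). The groups did not overlap for 4 of the 16, all higher, where 9.45% of all genes were separate and higher and 26.3% separate in either direction. Polb, the polymerase that fills the gap left by base excision, read 7.64, 8.09 and 8.14 in HDAC7-deficient cells against 6.99, 7.03 and 7.10 in wild-type cells. The wild-type arrays lay close together, and the change was 0.92 ± 0.26, or 0.95 without wild-type replicate 3 (limma adjusted p = 0.377 and 0.215). Gadd45a, a DNA damage response gene reported to promote demethylation, differed by 1.72 ± 0.45, or 1.40 without wild-type replicate 3, and its relative Gadd45g by 0.74 ± 0.27, or 0.68, both with no overlap and a limma adjusted p of 0.377. Tdg, the glycosylase that removes the oxidised bases made by TET enzymes, read 10.04, 9.25 and 9.22 in HDAC7-deficient cells against 10.03, 9.90 and 10.35 in wild-type cells, with a change of -0.59, or -0.46 without wild-type replicate 3; it was named after its values were seen.

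Genes of methyl donor and alpha-ketoglutarate metabolism, which supply the cofactors of both enzyme classes, were higher in 9 of 11 with all arrays (median 0.23) and in 4 of 11 without wild-type replicate 3 (median -0.20). Shmt1, a folate enzyme, differed by -1.24 ± 0.54, or -0.71 without that array. Idh3a, a subunit of the mitochondrial isocitrate dehydrogenase, differed by -0.52 ± 0.29, or -0.35 without that array, with no overlap between groups. No other of the 11 genes was separate, where 26.3% of all genes were separate in either direction. Idh1, which makes alpha-ketoglutarate in the cytosol, differed by 0.84 ± 0.58, or 0.25 without that array. The limma adjusted p of these 3 genes lay between 0.377 and 0.422.

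Immediate early genes, transcribed within minutes once cells are stimulated, were all higher in HDAC7-deficient cells. Of the 9 measured, 6 had an unadjusted limma p under 0.05, all higher, where 3.52% of all genes stood. None passed after adjustment. The median change was 2.10, or 2.70 without wild-type replicate 3. Their mean level was 7.94, 9.67 and 9.72 in HDAC7-deficient replicates 1, 2 and 3, against 6.39, 6.65 and 7.41 in wild-type replicates 1, 2 and 3. In this mean, as at the main Tet2 probe set, HDAC7-deficient replicate 1 was the lowest of its group and wild-type replicate 3 the highest of its own. At the second Tet2 probe set HDAC7-deficient replicate 1 was instead the highest of all arrays, at 6.73. Single immediate early genes differed too. The groups overlapped for 4 of the 9 and were separate and higher for 5, against 9.45% of all genes. Wild-type replicate 3 was the highest wild-type array for 5 and the lowest for 4. Jun differed by 2.76 ± 0.36, Fosb by 4.16 ± 0.68 and Junb by 1.98 ± 0.39, with limma adjusted p-values of 0.326 to 0.377; without wild-type replicate 3 the changes were 2.70, 4.62 and 1.80. Their part in the Tet2 result was not tested.

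Markers of other cells also differed between arrays. T cell markers were higher in 7 of 7 measured, with means of 7.91 to 8.50 on the HDAC7-deficient arrays and 6.73 to 8.09 on the wild-type arrays, and a median change of 0.61, or 0.30 without wild-type replicate 3. Myeloid markers were higher in 6 of 10 (8.86 to 9.26 and 8.53 to 8.98, median change 0.12, or 0.23 without that array). Of the genes listed for plasmacytoid dendritic cells, Siglech and Bst2 were not measured. The 4 measured, Ly6d, Irf8, Tlr7 and Tlr9, were all higher (9.60 to 10.45 and 7.30 to 9.74, median change 1.30, or 0.35 without that array). In bulk RNA these 4 cannot be assigned to those cells rather than to pro-B cells. Erythroid markers were higher in 2 of 4 (6.10 to 7.27 and 6.62 to 6.88, median change 0.00, or 0.12), and stromal and endothelial markers in 3 of 9 (6.32 to 6.84 and 6.58 to 6.82, median change -0.51, or -0.14). The myeloid granule gene Mpo read from 11.58 to 11.77 on the HDAC7-deficient arrays and from 9.92 to 11.98 on the wild-type arrays. The integrin gene Itgam, another myeloid marker, read 6.95, 8.35 and 8.07 in HDAC7-deficient cells against 6.43, 6.54 and 5.87 in wild-type cells. Its change was 1.51 ± 0.42, or 1.31 without wild-type replicate 3 (limma adjusted p = 0.377 and 0.252). Of the 10 myeloid markers Itgam alone had an unadjusted limma p under 0.05, where 3.52% of all genes were higher at that threshold. S100a8, S100a9, Cd14 and Adgre1 had changes of -0.06, -0.02, -0.24 and -0.26 with all arrays. Without wild-type replicate 3 their changes were 0.25, 0.24, 0.02 and 0.22, and 7 of the 10 markers were higher. The part of other cells in the values of the methylation enzymes was not tested.

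**Figure D4:**
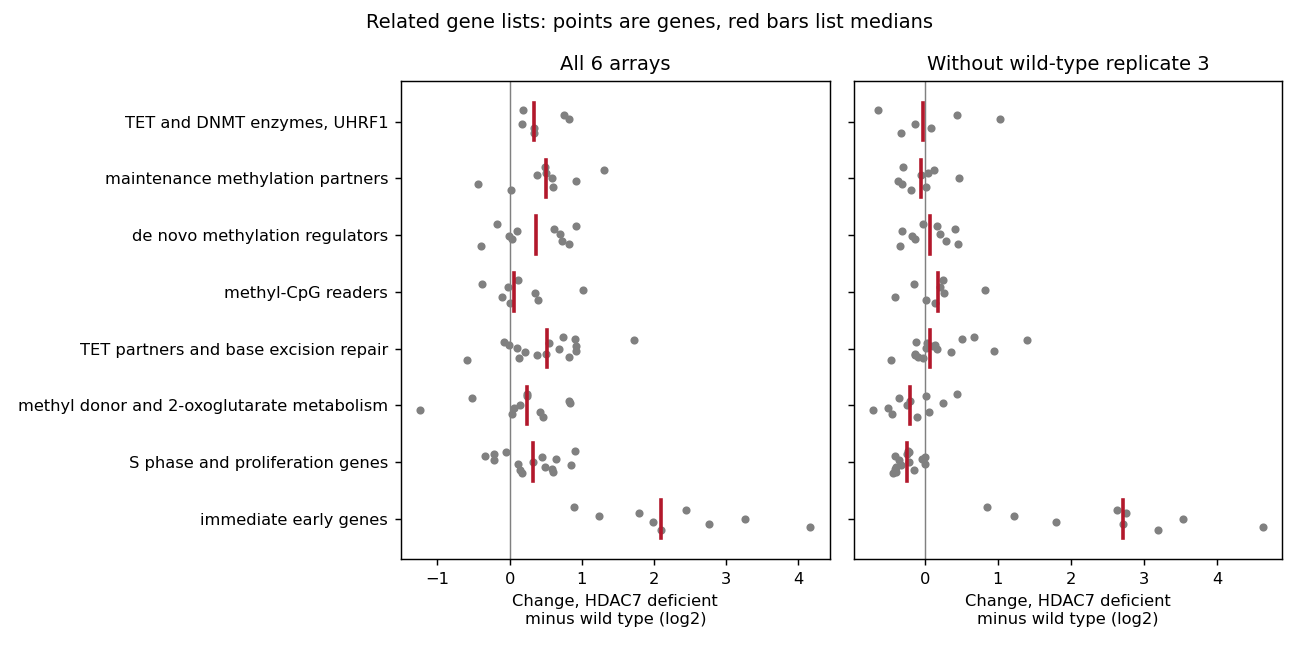
Change of each gene (points, log2, HDAC7 deficient minus wild type) in the methylation enzymes and the related lists on the vertical axis, with list medians as red bars, for all 6 arrays (left) and without wild-type replicate 3 (right). Without that array the medians of all lists but immediate early genes lie between -0.25 and 0.17.

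The genes whose profile over the 6 arrays was most like that of each enzyme were found by the smallest mean absolute difference of mean-centred log2 values, among 8239 or 8240 genes of at least median brightness. For Tet2 these were Zdhhc9, a protein palmitoyltransferase gene, at 0.11, and the chemerin-binding receptor gene Ccrl2 at 0.12, with changes of 0.68 and 0.74. Over the 5 arrays without wild-type replicate 3 their differences from Tet2 were 0.11 and 0.12, with 20 and 33 genes closer. For Tet3 they were Rtp4 and Pirb (0.061 and 0.063), for Dnmt1 Atp5g1 and Stoml2 (0.036 and 0.053), for Uhrf1 Endod1 and Psat1 (0.076 and 0.077), for Dnmt3a Hsp90b1 and Vamp5 (0.032 and 0.034) and for Dnmt3b Pole3 and Stag1 (0.046 and 0.052). No member was among the nearest genes of another. Over 5 arrays these differences were 0.069 and 0.070 for the Tet3 pair, 0.042 and 0.059 for Dnmt1, 0.073 and 0.073 for Uhrf1, 0.020 and 0.035 for Dnmt3a, and 0.043 and 0.061 for Dnmt3b. The nearest gene to Tet2 was further from it than the nearest genes of the other members were from theirs.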

How the data were processed

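RNA of sorted pro-B cells was amplified, labelled with biotin and hybridised to perfect-match Affymetrix arrays of the mouse genome, per the labels' protocols. In the deposited table each probe set has a single log2 value on each array, as the range of the values shows. The normalization is not given in the sources used here. Of 45141 probe sets 104 controls were set aside. Platform annotation gave 1 symbol for 28898 of the rest, 551 had several and 15588 none. By Entrez number 28689 were matched to current symbols (RefSeq, GRCm38.p6) and 209 kept the older one. Promoter sequences are RefSeq's, GRCm38.p6.

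The test was limma 3.58.1 in R 4.3.3 on all 6 arrays, with an intensity trend in the moderated variance, two-sided, with Benjamini-Hochberg adjustment over 17097 genes at 0.05; no dim genes were left out. The fit was also run on simulated arrays with known changes. Their noise was set without wild-type replicate 3, so they hold no outlying array and do not speak for the fit with it. Changes are HDAC7 deficient minus wild type ± SE. The number of arrays limits the precision. Gene lists are described by counts and medians. The members and lists were chosen with earlier results of these data known. In each related list the 3 genes of smallest p are named. The Mcm genes, Pax5, Ebf1, Mpo, Itgam, S100a8, S100a9, Cd14, Adgre1 and Tdg were named in addition, outside that rule. So were the genes listed for plasmacytoid dendritic cells. Figures used matplotlib 3.10.9. Alternatives were other normalizations, probe set choices, filters, variance models, array weights (gene-by-gene method), blocks and arrays left out. The fit with quantile normalization and wild-type replicate 3 left out was added after the data were seen.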

Additional observations from a re-analysis of the deposited data

How the results depend on the processing

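Over 17 alternatives Tet2 and Tet3 stayed higher in HDAC7-deficient cells, with changes of 0.27 to 1.34 and 0.15 to 1.02. Not all of these could move a change. The replicate block, both filters of dim genes and the fit without an intensity trend leave each change as it was. So does the mean over probe sets for Tet3, which has 1 probe set. Median centring adds the same amount to every gene. Dnmt1, Uhrf1, Dnmt3a and Dnmt3b changed sign. Dnmt1 was -0.081 with quantile normalization, -0.11 with array weights, -0.17 in the fit blocked on the Xist division without wild-type replicate 3, and -0.41 with quantile normalization without that array; leaving out each array in turn gave -0.32 to 0.77. In the same order Uhrf1 was -0.20, -0.55, -0.30 and -0.72, with -0.64 to 0.69 over the arrays left out. Dnmt3a was -0.15 with quantile normalization and -0.048 with that and wild-type replicate 3 left out. Dnmt3b was -0.056 with array weights and -0.20 with quantile normalization without that array, and -0.14 to 0.43 over the arrays left out. The blocked fit without wild-type replicate 3 has no wild-type array on the Xist-high side. Its changes, also the 0.15 of Tet3, are therefore the Xist-low differences again, with 1 HDAC7-deficient array against 2 wild-type arrays. The cause of the reversals was not tested.

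Calls over all genes appeared in 3 settings: 1 with the replicate number as a block, 4 in the fit blocked on the Xist division without wild-type replicate 3, and 8452 with array weights. Array weights put 8.68 on wild-type replicate 1 and 0.07 on wild-type replicate 3, and were the sole setting in which members passed: Tet2 by 1.34, Tet3 by 0.84 and Uhrf1 by -0.55 (limma adjusted p = 4.05e-04, 0.00320 and 0.0250). Genes at an unadjusted p under 0.05 numbered 2165 with all arrays, 626 to 5801 with 1 array left out, 3515 with the replicate block, 776 without the dimmest 50% of genes, 9614 with array weights and 7288 with the Xist division as a block. Of the 2 members whose groups were separate, 1 (Tet2) remained with the mean over probe sets and 0 after quantile normalization.

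The labels do not state that replicate numbers pair arrays, so the numbers were not taken as pairs. Same-numbered arrays had correlations of 0.10, 0.21 and 0.48 between their deviations from group means over genes, the first just under 0.1. HDAC7-deficient replicate 1 correlated best with wild-type replicate 2 (0.36). HDAC7-deficient replicates 2 and 3 each correlated best with the wild-type array of the same number. With so few arrays and an outlying wild-type replicate 3, these correlations cannot decide whether arrays were paired. The replicate block gave Tet2 an adjusted p of 0.275 and changed no member's call.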
